A study of Mus musculus with 8 samples.

Results

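Mki67 carried 53 clusters of transcription start sites (TSSs) on its own strand in wild-type mouse embryonic stem cells (mESCs), of which 52 lay inside exons and 1 at the annotated promoter. CAGE-seq captures the cap of RNA and sequences the 5′ ends, and a cluster is a run of neighbouring 5′ ends whose most used base is called the dominant TSS. The members were all minus-strand clusters with a dominant TSS from 500 bp upstream of the gene to its end, on chromosome 7 of mm10 from 135689784 to 135716361 (GENCODE release M21). There were 53 of 32857 clusters in E14, 54 of 33005 in A1 and 54 of 32870 in C7. The gene was chosen by its number of exonic clusters in E14, so its count is a description and was not tested. The window edges did not decide membership, because the nearest minus-strand cluster outside lay 1693895 bp beyond the upstream edge and at least 1906998 bp beyond the gene end.

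E14 is a wild-type mESC line and was profiled in 3 CAGE-seq libraries from nuclear RNA. A1 and C7 are E14 cells with a double knockout (DKO) of Pwwp2a and Pwwp2b, chromatin readers that form a complex with histone deacetylases, and were profiled in 2 and 3 libraries. Each DKO line is a single clone, and all cells were grown in serum with LIF. The libraries of each line had been merged before clusters were called, so each line gives 1 set of positions with no replicate error, and no difference between lines could be tested. The deposited clusters hold positions only, the depth behind each cluster is unknown here, and intervals given for shares cover counting error only.

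Mki67 encodes a large nuclear protein that is present in cycling cells and scarce in resting ones, which is why it is the common marker of proliferation. The protein coats chromosomes in mitosis, keeps them apart and binds the phosphatase PP1. Its gene has an unusually long exon that codes for a row of tandem repeats. All 8 embryonic stem cell markers examined had a promoter cluster in every line, among them Pou5f1 and Nanog. Of the 8 markers of other cell types, Sox17, Sox1, Col1a1 and Thy1 had a promoter cluster and Gata6, Gata4, T and Pax6 had none in any line. Pwwp2a had 1 promoter cluster in each line, the DKO clones included, and Pwwp2b had none in any line, so the presence of clusters did not check the knockout.

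Sequences around the promoter's dominant TSS and 4 exonic dominant TSSs are shown first, because GG just upstream was more frequent at exonic sites than at promoters, as described below. Each is read 5′ to 3′ on the minus strand of mm10 over 30 bases, and the capitals mark the 2 bases before the dominant TSS followed by the dominant TSS itself. The exonic examples were picked for reading GGA, as 16 of the 52 exonic dominant TSSs of E14 did. The promoter sequence comes from RefSeq (GRCm38.p6) and the others from GENCODE transcripts.
Promoter, 135716447: ctgcggcgggcgaGCCttggcgcggaaccg
Exon 6, 135707612: cggtggaggctggGGAtgttgccagccccg
Exon 8, 135704741: ataacgccaccgaGGAcaaatgatcaaaga
Exon 12, 135700725: atcaacaggtgcaGGAcaatgaaaacgctc
Exon 12, 135700017: tgacttgtttccaGGAactctttatatcac

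The promoter cluster had the same bounds in each line. As with the exonic clusters below, shared bounds and presence may not be independent calls. It spanned 135716352 to 135716499, and E14, A1 and C7 shared the dominant base 135716447. That base lies 86 bp upstream of the GENCODE gene start and 3 bp downstream of the RefSeq start at 135716450. The interquantile region, which holds the signal between quantiles 0.1 and 0.9 of a cluster, was 93 bp wide in E14, 103 bp in A1 and 100 bp in C7. The cluster was therefore broad in every line, while most of the exonic clusters described next were narrow.

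The exonic clusters were concentrated in exon 12. The transcript with the longest coding sequence has 14 exons, which add up to 10061 bp, and its introns add up to 16517 bp. No cluster lay in an intron in any line, and all 52 exonic dominant TSSs of E14 were in coding sequence. Exon 12, from 135694232 to 135701067, is 6836 bp long and makes up 67.9% of the exon bases. It held 45 clusters in E14 and 46 in each of A1 and C7, which is 86.5% of the exonic clusters in E14 and 86.8% in each clone. This comes to 6.58 clusters per kb in E14 and 6.73 per kb in each clone.

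The remaining 7 exonic clusters were the same ones in each line and lay in 4 exons. Exon 6 held 1 cluster in 960 bp, exon 8 held 2 in 253 bp, exon 9 held 2 in 119 bp and exon 13 held 2 in 417 bp. Exons 1 to 5, 7, 10, 11 and 14 held none. The first exonic cluster of the gene, in exon 6, was 8749 bp downstream of the annotated start. Exons 8 and 9 are short, and with 2 clusters each they had 7.91 and 16.8 clusters per kb, above the 6.58 per kb of exon 12.

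**Figure D1:**
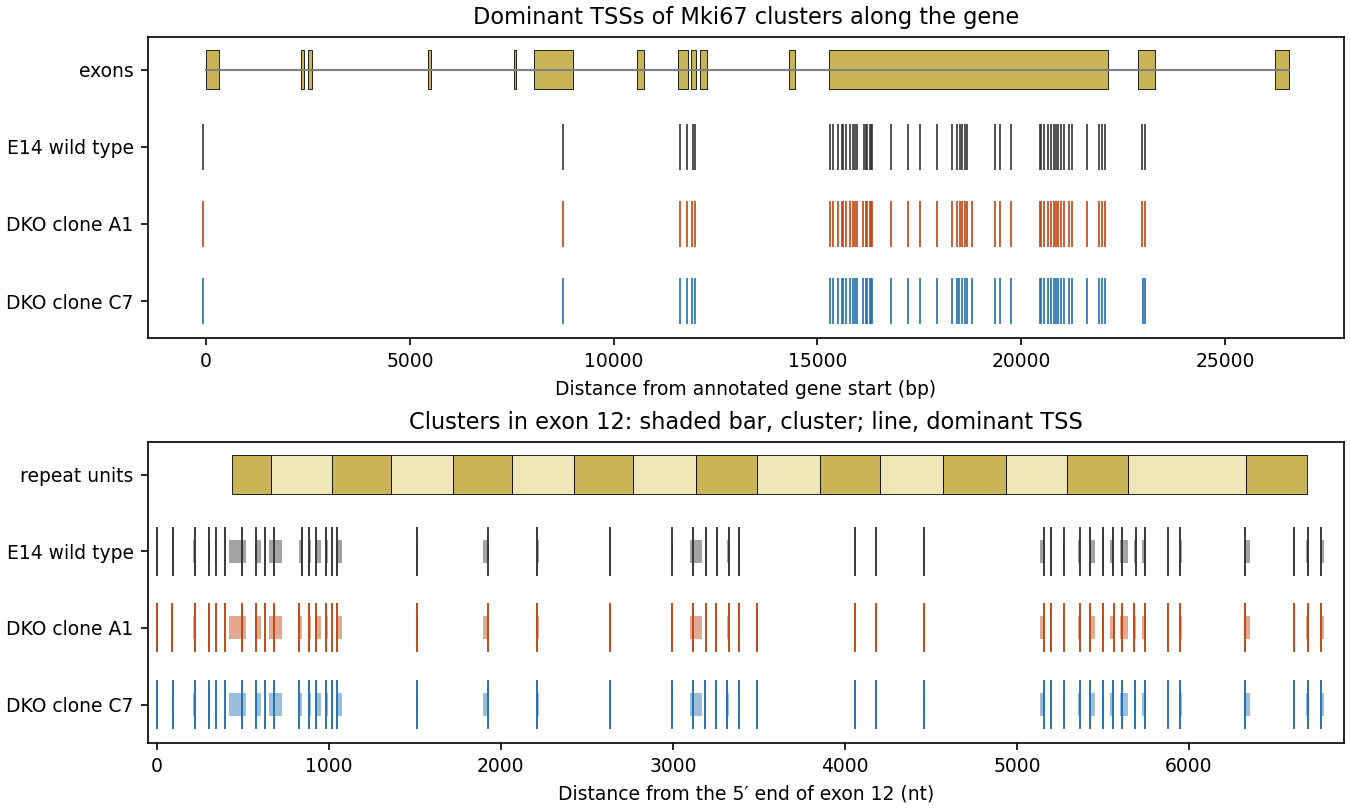
Upper panel, exons of Mki67 (boxes) and the dominant TSS of each cluster (lines) in E14, A1 and C7 against the distance in bp from the annotated gene start. Lower panel, exon 12 with its repeat units (alternating boxes) and the clusters of each line against the distance in nt from the exon's 5′ end, where the 46 clusters of each clone match the 45 of E14 but for 1.

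Within exon 12 the clusters were unevenly spread. From the 5′ end, successive windows of 1000 bp held 14, 4, 3, 5, 3 and 12 clusters in E14, and the last 836 bp held 4. A1 and C7 had the same counts except for 6 clusters in the fourth window. The clusters thus formed a dense group in the first kilobase and another in the sixth, with few in between. The 5′-most cluster of the exon, at 135701064, was 1 bp wide and lay 3 nt inside the exon.

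Neighbouring dominant TSSs in exon 12 were separated by a median of 77.5 bp in E14, 76 bp in A1 and 77 bp in C7. The quartiles in E14 were 57.25 and 142.5 bp. The closest neighbours were 31 bp apart and the most distant 699 bp in every line, and 28 of the gaps were at most 100 bp. Measured between cluster edges, the smallest gap was 20 bp in each line. The clusters covered 784 bp of the exon in E14 and 785 bp in each clone, or 11.5% of it. Clusters less than 20 bp apart had been joined when they were called, so gaps below that size could not occur, and any signal between clusters too weak to be called is not in these positions.

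The interquantile width had a median of 9 bp in E14, 10 bp in A1 and 9 bp in C7, with quartiles of 2 and 20.25 bp in E14. Over the exonic clusters of all other genes the median was 3 bp in each line, and over promoter clusters it was 20 bp in E14 and 21 bp in each clone. In E14, 14 of 52 Mki67 clusters (26.9%) were at most 2 bp wide, against 43.8% of 4208 other exonic clusters. The widths of Mki67 ranged from 1 bp to 97 bp, the widest being the cluster from 135700550 to 135700649, at 97 bp in each line. Greater widths than the median of all other exonic clusters were not particular to Mki67. In exon 12 the median was 9 bp in E14, and in the long exons with the most similar density of clusters it was 12.5 bp in Ankrd11, 10.5 bp in Resf1, 10 bp in Akap12, 6 bp in Srrm2 and 3 bp in Nucks1. Clusters of a gene are not replicates, so these are descriptions without a test.

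The presence of exonic clusters hardly differed between lines. Over the 3 lines there were 53 distinct exonic clusters, and 52 of them were found in every line with the same start and end. Of the exonic E14 clusters of all genes that overlapped a cluster in both clones, 99.1% had the same bounds in the 3 lines. The methods join clusters into consensus clusters across replicates, and whether bounds were also set across lines is not given in the sources used here, so the same bounds and presence in the lines may not be independent calls. The exception was a cluster of 1 bp at 135697578 in exon 12, which was found in A1 and C7 but not in E14. It is 1 of 53 exonic Mki67 clusters (1.89%), and over the exonic clusters of all genes 0.914% were found in both clones and not in E14. No Mki67 cluster was found in E14 alone, against a background of 0.114%, in A1 alone, against 0.8%, or in C7 alone, against 0.96%. With 0 of 53 clusters, the upper limit of the 95% Wilson interval for each of these shares was 6.76%.

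The dominant TSS was the same base in E14 and A1 at 42 of the 52 shared clusters, and likewise at 42 in E14 and C7. It therefore differed at 10 clusters in A1 (19.2%, 95% Wilson interval 10.8 to 31.9%), and over the shared exonic clusters of all genes it differed in 25.3%. In C7 it also differed at 10 clusters (19.2%), against a background of 22.8%. In both clones it differed from E14 at 5 clusters (9.62%, background 11.2%), and at 3 of these the clones shared the same new base (5.77%, background 9.05%). The clones differed from each other at 12 clusters (23.1%, background 27.9%). The Mki67 shares were thus close to the background in every case, and A1 and C7 differed from each other at least as often as either did from E14.

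Most of the differences were small. In A1 the dominant TSS was 1 bp away at 4 of the 10 clusters and over 10 bp away at 2, with a median of 3 bp and a maximum of 20 bp. In C7 it was 1 bp away at 5 and over 10 bp away at 4, with a median of 2.5 bp and the same maximum. It was upstream of the E14 base at 6 clusters in A1 and 7 in C7, and downstream at 4 and 3. Among the other exonic clusters that differed, it was upstream at 533 of 1056 in A1 and at 436 of 950 in C7. It was over 10 bp away at 242 and 224 of these, and the median was 2 bp in each clone. With 10 Mki67 clusters per clone, neither direction nor size was tested. At no cluster did A1 and C7 differ from E14 in opposite directions.

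The clusters where both clones differed were the following. The exon 9 cluster spanning 135704420 to 135704442 peaked at 135704422 in E14 and 20 bp upstream, at 135704442, in A1 and C7. The exon 12 cluster spanning 135700224 to 135700243 peaked at 135700224 in E14, at 135700243 in A1 and at 135700242 in C7. Both of these clusters used their 3′ edge or a base near it in E14 and their 5′ edge or the base next to it in the clones. At 135697812 in E14 the dominant TSS was 4 bp upstream, at 135697816, in both clones. At 135695871 in E14 it was 1 bp downstream, at 135695870, in both. At 135695377 in E14 it was at 135695385 in A1 and at 135695378 in C7.

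The sequences of the clusters with the longest of these differences show what stands before each choice of base.
Exon 9, E14, 135704422: gttgtaaaacttgGCGtgaaacaaacacaa
Exon 9, A1 and C7, 135704442: ttgcaaaatcatgGGCtgatgttgtaaaac
Exon 12, E14, 135700224: aagtagacatgaaGGAagaaagctctgcct
Exon 12, A1, 135700243: actagcacatctgGGAagaaagtagacatg
Exon 12, C7, 135700242: ctagcacatctggGAAgaaagtagacatga
In the exon 12 cluster the alternatives in E14 and A1 carried the same 9 bases from the capitals on, 19 bp apart. Among the 10 clusters that differed in A1, GG stood before the dominant TSS at 2 in E14 and at 4 in A1. Among the 10 that differed in C7 it did so at 3 in E14 and at 3 in C7.

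Differences in 1 clone only were as large. The exon 13 cluster spanning 135693380 to 135693399 peaked at 135693399 in E14 and A1 and 19 bp downstream in C7. A cluster of exon 12 peaked at 135697741 in E14 and A1 and 11 bp upstream, at 135697752, in C7. The cluster spanning 135700971 to 135700981 peaked at 135700971 in E14 and C7 and 10 bp upstream, at 135700981, in A1.

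The interquantile width was the same in all 3 lines at 38 of the 52 clusters. It was wider in A1 than in E14 at 9 clusters (17.3%, background 11.1%) and narrower at 2 (3.85%, background 6.39%). It was wider in C7 at 5 (9.62%, background 9.05%) and narrower at 5 (9.62%, background 6.72%). It was wider in both clones at 5 clusters (9.62%, background 6.18%) and narrower in both at 1 (1.92%, background 2.11%). The 95% Wilson interval of the highest of these shares, 9.38 to 29.7% for wider in A1, held the background.

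In sizes, the cluster with its E14 dominant TSS at 135700182 was 4 bp wide in E14 and 11 bp in each clone. The cluster with its dominant TSS at 135695907 was 2 bp wide in E14 and 8 bp in each clone. The cluster at 135695506 was the narrower in both clones, at 10 bp in E14, 9 bp in A1 and 4 bp in C7. The cluster at 135695324 was 9 bp wide in E14 and C7 and 26 bp in A1. Others were narrower in C7 only. The cluster at 135694302 was 21 bp wide in E14 and A1 and 8 bp in C7. Those with E14 dominant TSSs at 135700140 and 135700491 were 25 and 20 bp wide in E14 and A1, and 15 and 13 bp in C7. The other differences shared by the clones were of 1 or 2 bp.

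**Figure D2:**
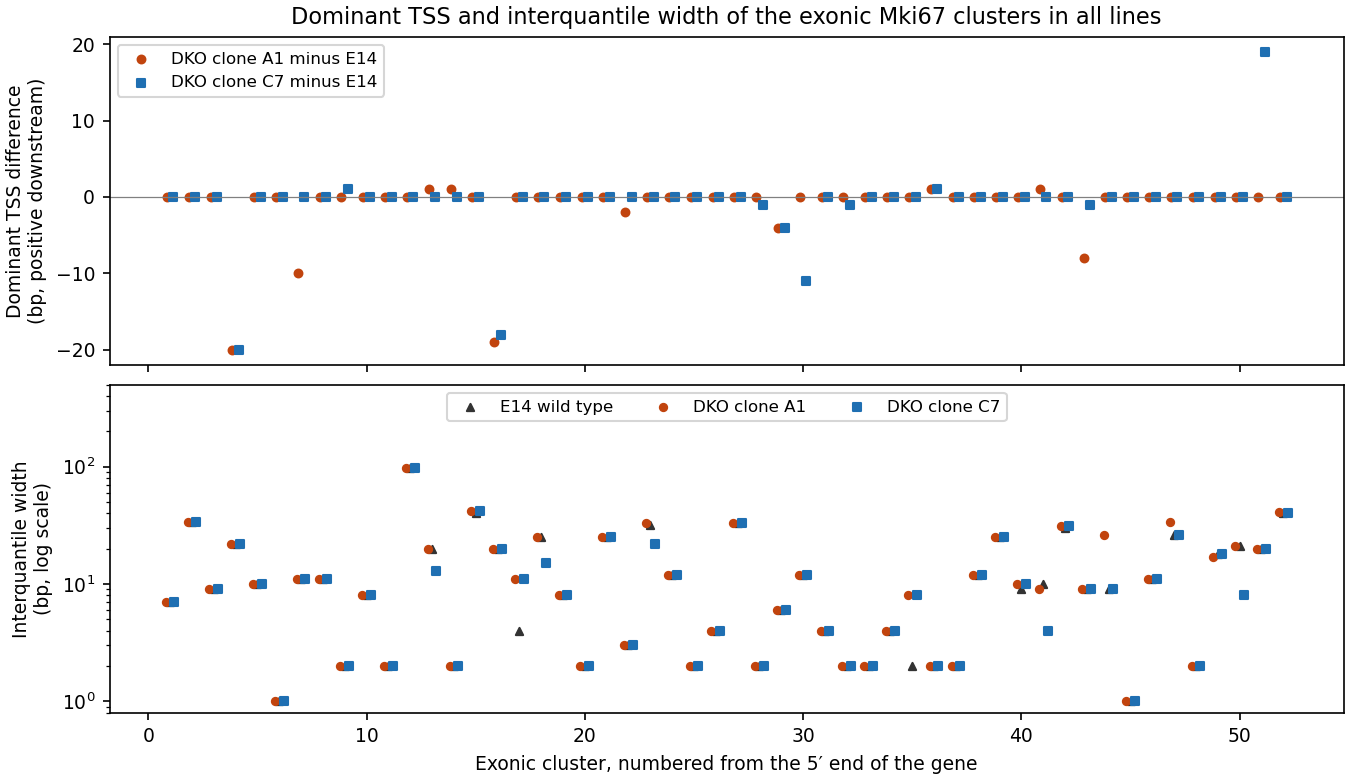
Upper panel, difference in bp between the dominant TSS of each clone and that of E14 for the 52 exonic clusters found in all lines, positive where the clone's base is downstream. Lower panel, interquantile width in bp (log scale) of the same clusters in each line, where 38 clusters have the same width in all 3.

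Guanines stood just before the dominant TSSs. The comparison of GG shares was added after the data were seen. In E14, 29 of 52 exonic Mki67 clusters (55.8%, 95% Wilson interval 42.3 to 68.4%) had GG as the 2 bases before the dominant TSS, as did 32 of 53 in A1 (60.4%) and 30 of 53 in C7 (56.6%). Over the exonic clusters of all other genes the share in E14 was 63.6% (interval 62.1 to 65.1%), within the Mki67 interval. At promoter clusters it was 10.9% in E14, over the 88.4% of clusters with known bases. The share in exonic Mki67 clusters was thus above that of promoters, and its difference from other exonic clusters was within counting error at these exact bases. GG was then allowed anywhere from 4 bases before to 2 after the dominant TSS. In E14 the share was 68.6% in Mki67 (35 of 51, interval 55.0 to 79.7%). It was 83.0% in other exonic clusters of E14 (interval 81.9 to 84.2%), so the Mki67 share was the lower there. In each clone the Mki67 share was 73.1% (38 of 52, interval 59.7 to 83.2%). Other exonic clusters had 83.4% in A1 (interval 82.2 to 84.5%) and 83.9% in C7 (interval 82.7 to 85.0%). The intervals thus overlapped in both clones.

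Guanine was the base right before the dominant TSS at 39 of 52 exonic Mki67 clusters (75%) in E14, and at 14.2% of promoter clusters. The pyrimidine followed by purine that is usual at the start of a promoter's transcripts was read at 5 of 52 exonic Mki67 clusters (9.62%), at 10.5% of other exonic clusters and at 74.4% of promoter clusters. The promoter of Mki67 itself lacked this step, since its dominant TSS was a cytosine after a cytosine. Its 2 bases before the dominant TSS, GC, also stood before some exonic ones, such as that at 135704422 in E14. The exonic dominant TSS itself was an adenine at 25 of the 52 (48.1%), against 32.9% of other exonic clusters and 47.4% of promoter clusters. From 2 bases upstream, 16 of the 52 read GGA, as did 962 of 4135 other exonic clusters and 779 of 17562 promoter clusters with known bases. Adenine also stood 3 bases downstream of the dominant TSS at 65.4% of exonic Mki67 clusters, against 49.0% of other exonic clusters. Exon 12 is 37.0% adenine, 23.0% cytosine, 22.6% guanine and 17.4% thymine.

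**Figure D3:**
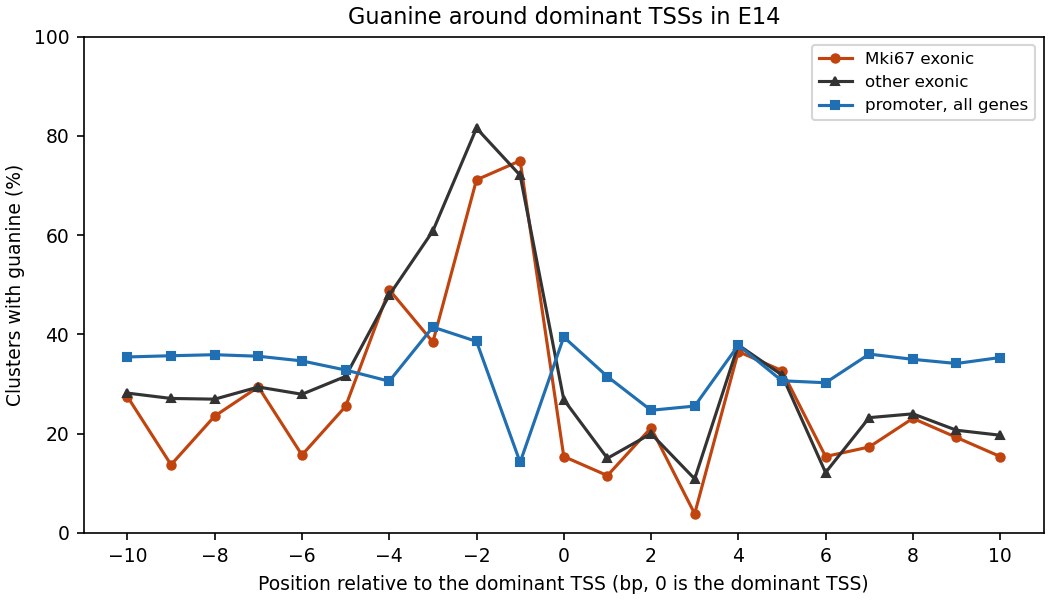
Share of E14 clusters with guanine (%) at each position from 10 bp before to 10 bp after the dominant TSS, for exonic Mki67 clusters, exonic clusters of other genes and promoter clusters of all genes. At the base before the dominant TSS the share is 75% in exonic Mki67 clusters and 14.2% at promoters.

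Few of the GG sites of exon 12 were used as dominant TSSs. Of 6834 positions with 2 exon bases before them, 341 (4.99%) followed GG, and 25 of these (7.33%, 95% Wilson interval 5.01 to 10.6%) were dominant TSSs in E14. Of the other positions, 20 (0.308%, interval 0.199 to 0.475%) were. In A1 the shares were 7.92% and 0.293%, and in C7 7.33% and 0.323%. Positions after GG were inside a cluster of E14 in 25.2% of cases, and other positions in 10.8%. A dominant TSS was thus more frequent after GG than elsewhere in the exon, while most GG sites held none.

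In the reading frame, 29 of the 52 E14 dominant TSSs (55.8%) were the second base of a codon, 16 the first and 7 the third. In exon 12 the split of the 25 that followed GG was 17, 4 and 4 in the same order. Of all 341 positions of exon 12 after GG, 41.1% were the second base of a codon, 25.5% the first and 33.4% the third.

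The repeats of exon 12 gave a further comparison, since related sequence occurs there many times over. Translated in frame, the exon divided into 17 stretches between recurring anchor residues, of 342 to 366 nt except for a first of 225 nt and a sixteenth of 681 nt. Identity of their residues to the twelfth stretch, which served as reference, ranged from 26.5% to 88.9%. Stretches 3, 4, 5, 10 and 11 had at least 75.8% identity, and aligned positions are uncertain in the stretches of low identity. In E14, stretches 3, 4, 5 and 12 held 1 cluster each, stretch 11 held 2 and stretch 10 none. Among the stretches of lower identity, 2 held 6 clusters, 15 and 16 held 5 each, 9 held 4, 1 and 14 held 3 each, 8 held 2, 6, 7 and 17 held 1 each and 13 held none. Low counts thus occurred at high and at low identity, while counts of 3 or more occurred only in stretches of at most 58.8% identity.

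In E14, 37 dominant TSSs lay in the repeats and 33 of them aligned to the reference. Of these, 13 lay within 1 bp of the aligned position of a dominant TSS in another stretch, and 14 of 34 did so in each clone. How many would match without any relation between the stretches was not calculated. Some matches joined stretches of low identity to the reference, such as stretch 1 (26.5%) with stretch 15 (34.2%). The pairs with the most bases in common are shown with their sequences.
Stretch 5, 135699139: ccttcaatacttgGGAaaaaaacaaagtca
Stretch 11, 135697009: ccttcaatacttgAGAaaaaaacaaagtca
Stretch 9, 135697683: cagcaccaatgcaGGAagaaaatggcacca
Stretch 12, 135696606: cagcaccagtgcaGGAagaaaatgacagca
The first pair shared 29 of 30 bases, and the difference was G14A, counted from 1 at the 5′ end of the printed sequence with the base of stretch 5 given first. Both dominant TSSs were at position 205 of the reference. The second pair shared 27 of 30 bases, and both were at position 257. Other pairs were less alike, and the dominant TSSs at 135700182 and 135698070, both at position 227, shared 12 of 30 bases.

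The cluster found in the clones only also had counterparts. Its dominant TSS at 135697578 aligned to position 362 of the reference, as did the dominant TSSs at 135700050 and 135694740, which were used in all 3 lines.
Stretch 2, all lines, 135700050: aatctaaaaaaaaGGCtcagcccctggaag
Stretch 9, A1 and C7, 135697578: cacccaaaaacagGGCtcagcccctagaag
Stretch 16, all lines, 135694740: cacataaggatggGGTtcaacctcttgaag
The sequence of the clone-only site shared 24 of 30 bases with that of stretch 2 and 20 with that of stretch 16. All 3 had GG before the dominant TSS.

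**Figure D4:**
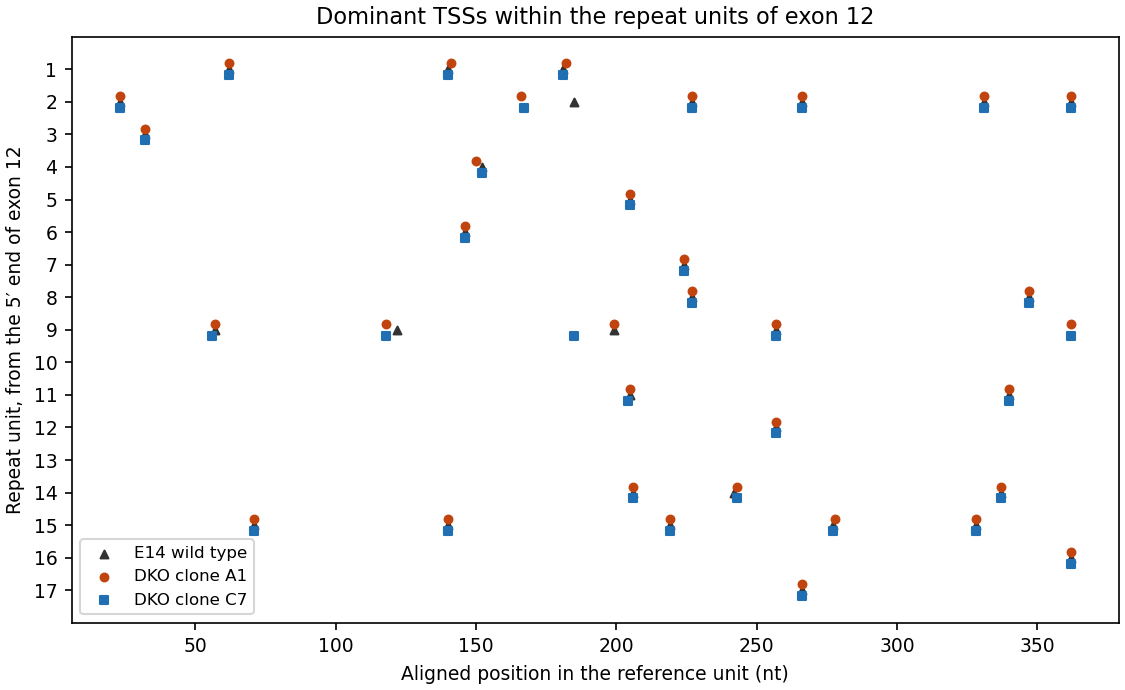
Aligned position (nt in the reference stretch) of each dominant TSS against the repeat stretch it lies in, numbered from the 5′ end of exon 12, for E14, A1 and C7. Symbols stacked at 1 position in different stretches are dominant TSSs at the same aligned position, as at 205, 257 and 362. Alignments are uncertain in stretches of low identity.

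Repeats limit which reads can be placed, since alignments were kept only if unique. A read of 80 bases less the barcode of 3 leaves 77 bases, and 181 of 6760 possible starts in exon 12 (2.68%) had an exact copy of these 77 bases elsewhere in the exon. At 28.5% of starts the closest copy differed at 4 or fewer bases, which is the number of mismatches the alignment allowed. Of the 45 clusters with at least 77 exon bases downstream of the dominant TSS, the clone-only cluster among them, 6 had such a copy. Among them were 3 of the 4 sites shown as pairs, at 3 mismatches for 135699139 and for 135697683 and at 1 mismatch for 135696606. The clone-only site at 135697578 had a copy at 2 mismatches, as did 135697741. The sequence from the dominant TSS at 135696886, used in all 3 lines, was identical to that from 135699367 on for 82 bases. The dominant TSS nearest to that copy was 185 bp away. A read of 77 bases matching the reference from that start would not be unique, and how a cluster came to be called there was not tested. The part of such copies in the cluster counts was not tested.

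The longest exon of Mki67 was compared with other long exons. In protein-coding genes, 247 longest exons had at least 3000 bp and held an exonic cluster in E14. They belong to 246 gene symbols, since Ptp4a1 is annotated with a pair of nearly identical exons. The median was 0.298 clusters per kb. Mki67 ranked first of them by number and behind Akap12 alone by clusters per kb. The gene was chosen by its number of exonic clusters in E14, so these ranks follow from the choice and are descriptions only. Of the 247, 8 had at least 10 clusters.

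The 5 most like Mki67 in clusters per kb, among those with at least 10, were Ankrd11, Akap12, Nucks1, Srrm2 and Resf1. Akap12, which encodes a scaffold of protein kinase A, had 39 clusters in 4798 bp (8.13 per kb) in each of the 3 lines. Ankrd11, which encodes a chromatin regulator, held 36 (E14), 38 (A1) and 37 (C7) in 6518 bp, with 5.52 per kb in E14. Nucks1 had 17 in each line (3.21 per kb) in an exon that is only 3.21% coding. Srrm2, which encodes a splicing factor, counted 19 for E14 and A1 and 21 for C7 (2.89 per kb in E14), and Resf1 had 12 in each line (2.74 per kb). Their shares with GG before the dominant TSS in E14 ran from 64.7% in Nucks1 (11 of 17) to 75% in Resf1 (9 of 12). Exon 12 of Mki67 had 55.6% (25 of 45, Wilson interval 41.2 to 69.1%). That interval held the shares of Nucks1 and Srrm2 (68.4%) but not those of Akap12 (71.8%), Ankrd11 (72.2%) and Resf1. Among the other long exons with at least 10 clusters, Ppig had 66.7% (8 of 12) and Tet1 had 45% (9 of 20), below Mki67. These differences were not tested.

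**Figure D5:**
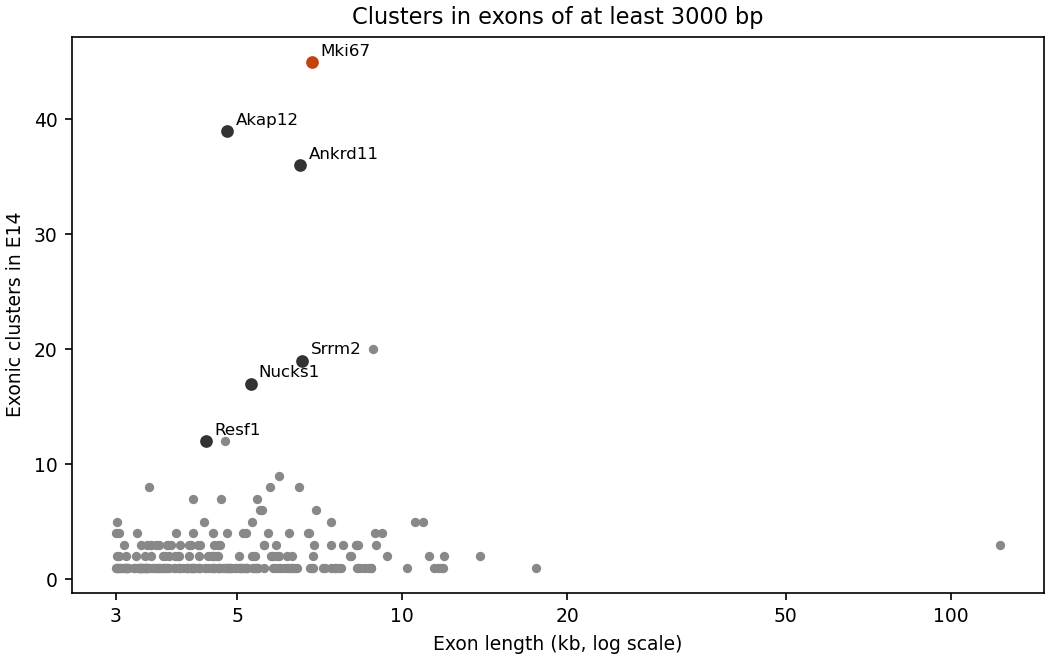
Number of exonic clusters in E14 against exon length (kb, log scale) for 247 longest exons of protein-coding genes. Mki67, which was chosen by its number of exonic clusters, is highest with 45, followed by Akap12 with 39 and Ankrd11 with 36.

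Other genes of mitosis and proliferation were examined to place Mki67 among genes active in the same cells. All 26 had a promoter cluster in each line, 13 had an exonic cluster in E14 and 14 in each clone. Their exonic clusters summed to 65 in E14, 66 in A1 and 67 in C7, so the 26 together had little more than the 52, 53 and 53 of Mki67 alone. Because Mki67 was chosen by its number of exonic clusters, its higher counts and densities beside this list are descriptions only. Per length, Mki67 had 5.17 exonic clusters per kb of exon in E14. The highest of the list was Smc2, a subunit of condensin, at 2.01 per kb, with 11 clusters in E14, 12 in A1 and 11 in C7.

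Cenpf, a large kinetochore protein, had 17 clusters (1.10 per kb) in E14, with 16 for A1 and 18 for C7. Cenpe, a kinetochore motor, had 9 in each line. Top2a, which untangles DNA, counted 7 in A1 and 8 in the other lines. The count was the same in all 3 lines for 19 of the 26 genes, was higher in both clones for 1 (Ppp1cb, a catalytic subunit of PP1, from 2 to 3) and was lower in both for 0. In the list, 46 of 64 exonic dominant TSSs with known bases (71.9%) had GG before them.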

How the data were processed

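Nuclear RNA of 8 libraries was sequenced from its capped 5′ ends. The authors mapped reads of 80 bases to mm10 with STAR 2.4.2a, kept unique alignments with at most 4 mismatches, merged the libraries of each line, and called clusters with CAGEr 1.28.0. The signal needed to call a cluster is not given in the sources used here. The deposited score of every cluster is 0, so the deposited positions of clusters, dominant TSSs and interquantile regions were analysed.

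Categories were assigned to the dominant TSS from GENCODE release M21, in the order promoter (a same-strand transcript start no more than 500 bp away), exon, intron. Clusters of different lines were matched by an overlap of 1 bp. Repeats were divided by matching windows of 16 residues with at least 7 identical. Python 3.11.15, NumPy 2.4.6, SciPy 1.17.1, Biopython 1.88 and Matplotlib 3.10.9 were used. Functions were tested on simulated clusters. No p-value was calculated, since merged lines have no replicates. Named genes were Mki67, the knocked-out genes, the mitotic list, the cell type markers and the 5 genes closest in clusters per kb. Ptp4a1, Ppig and Tet1 were named in addition among the long exons. The members and lists were chosen with earlier results of these data known. Alternatives were other promoter windows, strand and position rules, overlap rules, a minimum interquantile width of 3 bp and other tolerances for the dominant TSS.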

Additional observations from a re-analysis of the deposited data

Results flagged for a closer look

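Clusters on the plus strand, opposite to Mki67, were outside the comparisons above. There were 7 in the gene in E14, 7 in A1 and 8 in C7. They lay in exons 10, 12 and 13, and the additional cluster of C7 was 1 bp wide at 135700472. The base after the dominant TSS was a thymine at 7 of 7 in E14, 6 of 7 in A1 and 7 of 8 in C7. In E14 a thymine stood there at 32.7% of exonic Mki67 clusters and 38.8% of other exonic clusters. The 7 clusters of E14 had the same bounds in both clones, so the counts of the lines may not be independent. The bases before these dominant TSSs were not examined, and the difference was not tested.

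At the cluster from 135699139 to 135699171 the interquantile width differed from E14 in opposite directions in the clones, at 32 bp in E14, 33 bp in A1 and 22 bp in C7. This difference was not tested, since each line is 1 merged set.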

How the results depend on the processing

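The results were recomputed under 90 alternatives, of which 79 gave values within the limits set (1.5 times for counts, the 95% interval for shares and medians). Counts by category, the clusters in exon 12, the clusters found in 1 or 2 lines and the matches between repeat stretches all stayed within them. Many of these alternatives could change little. Each line kept 1 promoter cluster and 0 intronic clusters throughout, and promoter windows of 100 and 1000 bp left the exonic counts unchanged. The limit for counts was also wide. With clusters at least 3 bp wide only, E14 had 38 exonic clusters instead of 52, and 31 in exon 12 instead of 45. The 79 of 90 is therefore not a measure of robustness. Allowing 5 bp, the dominant TSS was the same in E14 and A1 at 92.3% of clusters and in E14 and C7 at 92.3%, and with 10 bp at 96.2% and 92.3%, against 80.8% at the exact base. The median spacing in exon 12 was 62 bp between cluster edges in E14. With clusters at least 3 bp wide only, it was 114 bp in E14 and 120 bp in A1, with 120 bp in C7. The share with GG before the dominant TSS and its alternatives were added after the data were seen. Looking for GG from 4 bases before to 2 after the dominant TSS gave 68.6% in E14, against 83.0% of other exonic clusters. It gave 73.1% in A1 against 83.4%, and 73.1% in C7 against 83.9%, with overlapping intervals in both clones.

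No paired analysis was possible because the libraries of each line were merged before clusters were called, and leaving out 1 library at a time was impossible for the same reason. The positions carry no signal, so changes in the amount of RNA started at a cluster were not analysed here.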
